A study of Sus scrofa with 12 samples.

Results

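The genes described here were higher in deoxyshikonin-treated IPEC-J2 cells than in untreated cells at 6 h and back within a narrow band of the untreated level at 24 h. IPEC-J2 is a cell line of pig small intestinal epithelium, and deoxyshikonin is a plant naphthoquinone. Expression was measured by RNA sequencing in 4 groups of 3 libraries: untreated cells at 6 h, cells given 5 µmol/L deoxyshikonin at 6 h, untreated cells at 24 h and cells given 5 µmol/L deoxyshikonin at 24 h. All groups are the same cell line, and no label says whether the libraries of a group came from separate cultures, so p-values measure only the spread between these libraries, which may be technical. Values are TPM (a level per transcript length, scaled to the same total in each library), and they carry no sequencing depth.

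A gene was a member if it had an Ensembl identifier, a mean of at least 1 TPM over the 12 libraries, a treated minus control difference of at least 1 in log2(TPM + 1) at 6 h, and a difference between -0.3 and 0.3 at 24 h. These limits were met by 175 of the 11366 Ensembl genes with a mean of at least 1 TPM, in a table of 32518 identifiers. Of 689 genes that met the limit at 6 h, the 175 members make up 25.4%, whereas 486 lay above the 24 h band and 28 below it. A gene name was found for 137 members, and 38 have an identifier only. Members were thus chosen by their TPM in all 12 libraries, through both treatment comparisons, so their differences at 6 h and 24 h are descriptions without a test. The number of members depended on how libraries were scaled. After rescaling by the median of ratios to abundant genes, which moved the median 6 h difference of all tested genes from -0.20 to -0.07, 364 genes met the limits, and 170 of the 175 were among them.

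Of the 175 members, 8 stood on a list of heat shock and protein folding genes (23 tested) and 4 on a list of the integrated stress response (24 tested). Lists of NF-kB and defence genes and of barrier genes held 3 of 17 and 2 of 23 tested genes. Of all Ensembl genes with a mean of at least 1 TPM, 1.54% were members. The lists were chosen with earlier results of these data known, and no set test was run. Cytosolic chaperones of the HSP70 and HSP90 families bind unfolded proteins, J-domain proteins such as the DNAJ family deliver clients to HSP70, and co-chaperones pass clients between the chaperone machines. Proteins that cannot be folded are tagged with ubiquitin and degraded by the proteasome. In the endoplasmic reticulum the chaperone HSPA5 (BiP) and the proteins of the unfolded protein response do the corresponding work, and the integrated stress response raises genes of amino acid supply through the factor ATF4.

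The epithelial label was checked first. Of 7 epithelial markers in the table all 7 had a mean of at least 1 TPM, and their summed level was 7206 to 7429 TPM in 6 h controls, 4684 to 4859 TPM in 6 h treated cells, 7634 to 8021 TPM in 24 h controls and 7858 to 8112 TPM in 24 h treated cells. The 7 include CLDN4, itself a member. At 6 h KRT8, KRT18, KRT7, EPCAM and VIL1 were lower and CDH1 and CLDN4 higher in treated cells, 5 and 2 of 7 (limma, adjusted p under 0.05), where 48.7% of all tested genes were called lower and 26.6% higher. KRT7 had a mean of 1883 TPM in 6 h controls and 661 TPM in 6 h treated cells, and 1970 and 2025 TPM at 24 h. Markers of other cell types had low sums. The 5 immune markers summed to 44.3 to 51.1 TPM in 6 h controls and 55.1 to 55.9 TPM in 6 h treated libraries, nearly all of it LYZ, and CD14 was higher in treated cells (means of 1.22 and 5.99 TPM, limma adjusted p = 1.04e-07). The 4 endothelial markers summed to 10.8 to 15.6 and 20.3 to 25.1 TPM, nearly all of it PECAM1, which was higher in treated cells (limma adjusted p = 0.00255). The 5 fibroblast markers summed to 9.14 to 9.73 and 5.81 to 6.80 TPM, with COL1A1 and COL1A2, the 2 tested, both lower, and the 3 smooth muscle markers to 1.12 to 2.30 and 1.84 to 3.07 TPM. PTPRC (CD45), PDGFRA and KDR, from the immune, fibroblast and endothelial lists, had group means of 0.03 TPM or less in every group. Other genes of these lists, such as LYZ and PECAM1, were not near 0, so these low values do not settle which cells were present. The part of these markers in the members' values was not tested. In such bulk samples, fewer cells of a type and less RNA per cell cannot be told apart.

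The members together held a small part of the RNA in 3 groups and a several times larger part in 6 h treated cells. In 6 h controls their summed TPM made up 1.22% of the library (SD 0.0211, n = 3), and after 6 h of deoxyshikonin 4.52% (SD 0.374, n = 3). Untreated libraries at 24 h gave 1.42% (SD 0.094, n = 3) and treated ones 1.49% (SD 0.0362, n = 3). Most of the excess lay in UBB, HSPA8 and HSPA5, whose joint share was 0.434% in 6 h controls, 2.59% in 6 h treated cells, 0.369% in 24 h controls and 0.406% in 24 h treated cells. By level, 32 members had a mean of at least 100 TPM in 6 h treated cells, the 7 most abundant being UBB, HSPA8, HSPA5, HSP90AB1, SAT1, GPRC5A and CLDN4, and 37 were under 10 TPM.

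**Figure D1:**
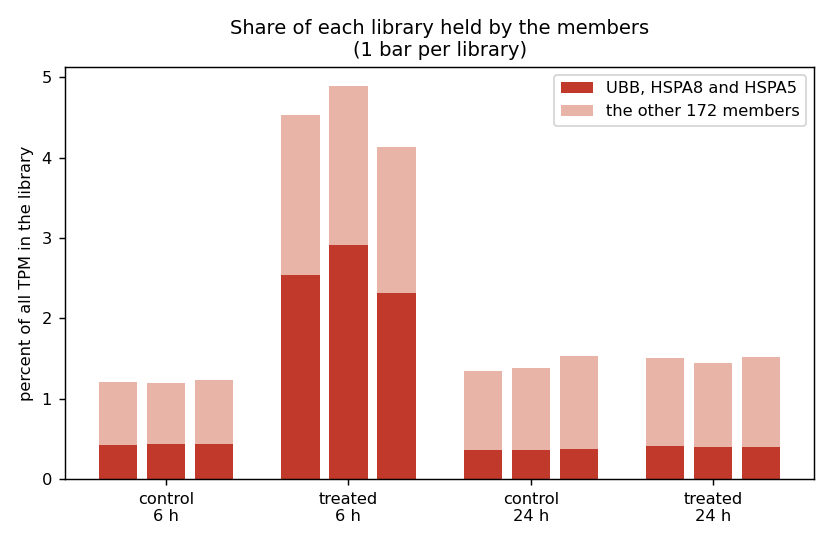
Percent of all TPM in each library held by the 175 members, 1 bar per library, split into UBB, HSPA8 and HSPA5 (dark) and the other members (light). The 6 h treated libraries stand between 4.14% and 4.89%, and the other 9 libraries between 1.2% and 1.53%.

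UBB, a gene of polyubiquitin, was the most abundant member. Its level was 1189, 1204 and 1266 TPM in the 6 h controls and 11222, 12651 and 10140 TPM in the 6 h treated libraries, 9.29 times the control mean. Untreated libraries at 24 h stood at 1554, 1479 and 1544 TPM, treated ones at 1687, 1585 and 1669 TPM. The treated libraries at 6 h stand far above the other 9, and at 24 h every treated library lay above every untreated one by a small margin. The coding sequence of UBB is a repeat, and how reads from near-identical sequence were assigned is not given, so its level is uncertain.

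HSPA8, the constitutive cytosolic HSP70, had 2171, 2193 and 2187 TPM in 6 h controls and 9435, 11064 and 8748 TPM in 6 h treated libraries. Its 24 h level was 1342, 1403 and 1371 TPM without treatment, against 1539, 1535 and 1517 TPM with deoxyshikonin. Both 24 h groups were thus under the 6 h controls, and the treated 24 h cells came back to the control of the same hour, not to the starting level. The difference between 24 h and 6 h in untreated cells was -0.67 on the log2 scale (SE 0.06, limma adjusted p = 6.96e-06). HSPA8 was chosen through the same control libraries, so this p-value is conditioned on the choice and nothing is drawn from it.

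Other HSP70 and HSP90 partners among the members were also highest after 6 h of treatment. DNAJA1, an HSP70 co-chaperone, had 159, 144 and 148 TPM in 6 h controls, 524, 615 and 486 TPM in 6 h treated libraries, 93.7, 96.5 and 98.9 TPM in 24 h controls and 104, 107 and 109 TPM in 24 h treated libraries. STIP1 (HOP), which links HSP70 to HSP90, had a mean of 310 ± 3.93 TPM (SD, n = 3) in 6 h controls and 807 ± 68.3 TPM (SD, n = 3) in 6 h treated cells, then 230 ± 1.83 and 217 ± 3.35 TPM (SD, n = 3 each) in 24 h control and treated cells. FKBP4, an HSP90 co-chaperone of steroid receptors, had 323 ± 7.04 TPM (SD, n = 3) in 6 h controls, 680 ± 51.7 TPM (SD, n = 3) in 6 h treated cells, 161 ± 1.59 TPM (SD, n = 3) in 24 h controls and 192 ± 4.29 TPM (SD, n = 3) in 24 h treated cells. In all 3 genes the 24 h groups lay under the 6 h controls. AHSA1, an activator of the HSP90 ATPase, and CHORDC1, another HSP90 co-chaperone, were 2.49 and 2.37 times the control mean at 6 h; both were picked for the text after their values were seen.

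HSP90AB1, the constitutive cytosolic HSP90, had a smaller 6 h difference. Its level was 1407, 1445 and 1425 TPM in 6 h controls and 2857, 3088 and 2763 TPM in 6 h treated libraries, close to the lower limit of the rule. At 24 h the controls had 1500, 1546 and 1525 TPM and the treated libraries 1383, 1487 and 1547 TPM, which overlap. DNAJB4, a J-domain protein, was the least abundant of these chaperones, with 5.51, 5.9 and 6.01 TPM in 6 h controls and 34.3, 41.0 and 32.4 TPM in 6 h treated libraries. It had 7.46, 8.65 and 7.12 TPM in 24 h controls and 8.20, 9.66 and 10.4 TPM in 24 h treated libraries. In all 8 members on the heat shock list, the treated 6 h library of replicate 2 was the highest, which held for 94 of all 175 members. The share of all tested genes for which this held was not taken, so it is not read as a trait of the members.

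**Figure D2:**
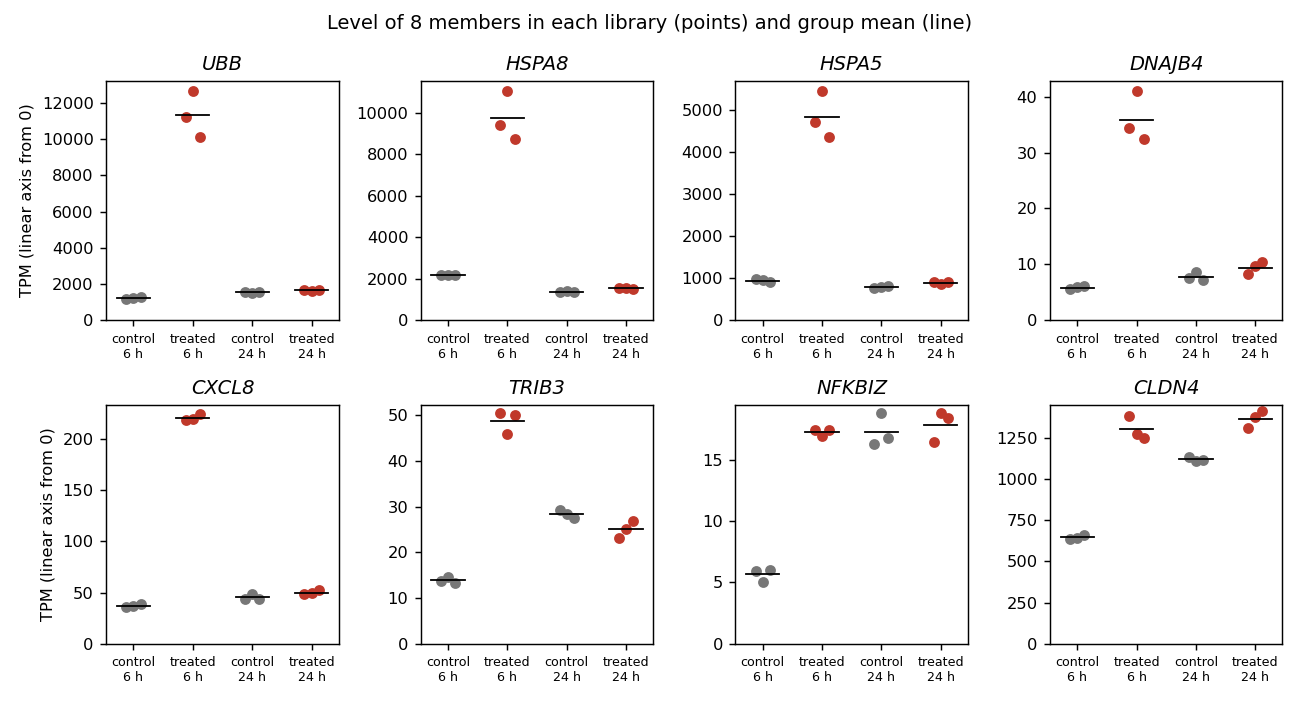
TPM of 8 members in each of the 12 libraries (points) with the group mean (line), controls in grey and treated cells in red, on linear axes from 0. UBB, HSPA8, HSPA5, DNAJB4 and CXCL8 peak in 6 h treated cells, with treated means from 35.9 TPM (DNAJB4) to 11337 TPM (UBB). TRIB3 also peaks in 6 h treated cells. In TRIB3, NFKBIZ and CLDN4 the 24 h controls lie well above the 6 h controls.

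The rest of the heat shock and protein folding list shows where the members sit within this family. Of 25 listed genes 23 were tested, and 8 were members. All 8 members stand at a difference of 1.02 to 2.43 at 6 h, with a median of 1.34. Outside the members stood 15 genes, of which deoxyshikonin raised 14 at 6 h and lowered HSF1 alone (limma, adjusted p under 0.05), where 26.6% of all tested genes were called higher and 48.7% lower. Of the 15, 11 were called higher after 24 h, HSPD1 and HSPE1 were lower and 2 did not pass. Members were taken out by their 24 h difference, so the counts of the 15 are conditioned on the rule. Over the whole list of 23, 12 were called higher and 2 lower at 24 h, against 32.2% and 18.1% among all tested genes. Of the 15, the 11 with a 6 h difference of at least 1 had a median 6 h difference of 3.90. As non-members these 11 must lie outside the 24 h band, and 10 lay above it and 1 below.

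The stress-inducible chaperones were in that group. HSPA6, an inducible HSP70 almost silent in unstressed cells, had a mean of 3.88 TPM in 6 h controls and 1431 TPM in 6 h treated cells, and 238 TPM in 24 h treated cells against 3.13 in controls. DNAJB1 had 43.8 and 982 TPM at 6 h and 38.5 and 74.7 TPM at 24 h. BAG3, a co-chaperone that directs HSP70 clients to autophagy, had 37.7 and 882 TPM at 6 h and 43.8 and 76.1 TPM at 24 h. At 6 h the median control level was 241 TPM for the 8 members and 20.6 TPM for the 11 others with a difference of at least 1. HSPD1, the mitochondrial HSP60, left the band on the other side, with a 24 h difference of -0.48 (limma adjusted p = 0.000204).

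**Figure D3:**
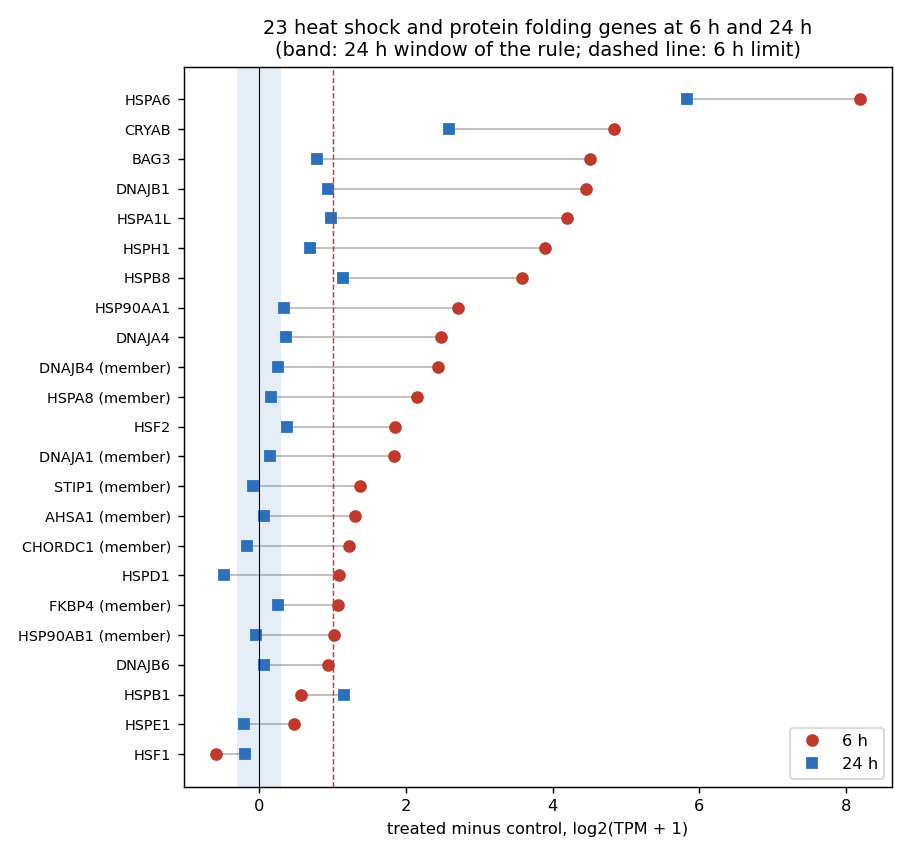
Treated minus control difference in log2(TPM + 1) at 6 h (red circles) and 24 h (blue squares) for the 23 tested heat shock and protein folding genes, ordered by the 6 h difference. The shaded band and the dashed line are the limits of the rule, so the 8 members have a blue square in the band and a red circle right of the line; HSPA6 lies at 8.19 and 5.83.

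Members that act in the endoplasmic reticulum and in the integrated stress response were HSPA5, HERPUD1, DNAJB9 and TRIB3, 4 of the 24 tested genes of that list. HSPA5 had 964, 943 and 909 TPM in 6 h controls and 4700, 5444 and 4341 TPM in 6 h treated libraries, then 758, 794 and 811 TPM in 24 h controls and 896, 864 and 897 TPM in 24 h treated libraries. HERPUD1, a component of endoplasmic reticulum-associated degradation, had 40.9, 43.1 and 42.7 TPM in 6 h controls, 156, 168 and 151 TPM in 6 h treated libraries, 71.3, 70.2 and 67.2 TPM in 24 h controls and 85.4, 74.5 and 78.4 TPM in 24 h treated libraries. For HERPUD1 both 24 h groups stand between the 6 h controls and the 6 h treated cells. DNAJB9 (ERdj4), a J-domain partner of HSPA5, showed the same order with means of 6.76, 20.7, 12.4 and 14.1 TPM in 6 h control, 6 h treated, 24 h control and 24 h treated cells.

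TRIB3, a pseudokinase target of ATF4, had 13.8, 14.6 and 13.2 TPM in 6 h controls and 50.5, 46.0 and 50.0 TPM in 6 h treated libraries. Untreated libraries at 24 h gave 29.3, 28.3 and 27.6 TPM, treated ones 23.2, 25.1 and 26.8 TPM, so the 24 h controls lay above the treated cells without overlap. CTH, the enzyme that makes cysteine from cystathionine and is not on the list, behaved alike. It had 32.1, 36.3 and 32.6 TPM in 6 h controls, 129, 138 and 130 TPM in 6 h treated libraries, 82.2, 88.5 and 84.2 TPM in 24 h controls and 63.1, 74.0 and 75.5 TPM in 24 h treated libraries. Over all tested genes 26.6% were called higher and 48.7% lower at 6 h, and 32.2% higher and 18.1% lower at 24 h. Of the 20 tested non-members of the integrated stress list, 15 were higher and 3 lower at 6 h (limma, adjusted p under 0.05). At 24 h 6 of them were higher and 14 lower. Members were taken out by the rule, so the counts of the 20 are conditioned on it. Over the whole list of 24, 19 were higher and 3 lower at 6 h, and 7 higher and 15 lower at 24 h. CHAC1, for example, had 22.9 and 45.3 TPM at 6 h in control and treated cells and 80.5 and 37.4 TPM at 24 h.

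Signalling and defence members included CXCL8 (interleukin-8), the chemokine that attracts neutrophils. Its level was 35.4, 36.5 and 38.6 TPM in 6 h controls, 219, 220 and 224 TPM in 6 h treated libraries, 43.9, 48.7 and 43.7 TPM in 24 h controls and 48.4, 49.1 and 52.1 TPM in 24 h treated libraries. CXCL8 at 6 h was 6.00 times the control mean, with a spread among the treated libraries of 2.90 TPM (SD, n = 3). CSF3, the granulocyte growth factor G-CSF, had the same shape at a low level, from 0.47 to 0.74 TPM in 6 h controls, from 3.51 to 3.85 TPM in 6 h treated libraries and from 0.57 to 0.92 TPM in the 24 h libraries. CSF3 passed the 1 TPM limit only through the 6 h treated libraries. NFKBIZ, a nuclear regulator of NF-kB target genes, was the third member on this list of 17 tested genes. It had 5.96, 5.05 and 6.04 TPM in 6 h controls, and all 9 libraries of the other groups lay between 16.3 and 18.8 TPM. Of the 14 tested non-members of the list, 9 were higher and 4 lower at 6 h (limma, adjusted p under 0.05). At 24 h 8 of them were higher and 4 lower. The rule took the members out, so the counts of the 14 are conditioned on it. Over the whole list of 17, 12 were higher and 4 lower at 6 h, and 8 higher and 4 lower at 24 h. Among all tested genes 26.6% were called higher and 48.7% lower at 6 h, and 32.2% higher and 18.1% lower at 24 h.

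CLDN4 and CLDN23, claudins of the tight junction, were members on the barrier list of 23 tested genes. CLDN4 had 639, 642 and 659 TPM in 6 h controls, 1380, 1273 and 1251 TPM in 6 h treated libraries, 1133, 1112 and 1115 TPM in 24 h controls and 1311, 1377 and 1412 TPM in 24 h treated libraries. CLDN4 in treated cells was thus as high at 24 h as at 6 h, and the control had moved up. At 24 h every treated library still lay above every control, with a difference of 0.29 in log2(TPM + 1), near the upper edge of the band. CLDN23 had group means of 2.01, 5.36, 4.76 and 5.55 TPM in 6 h control, 6 h treated, 24 h control and 24 h treated cells. Of the other 21 barrier genes, deoxyshikonin raised 3 and lowered 15 at 6 h (limma, adjusted p under 0.05). Among all tested genes 26.6% were called higher and 48.7% lower at 6 h. After 24 h 5 of the 21 barrier genes were called higher and 4 lower, with 12 not past the threshold. The rule took the 2 members out, so the counts of the 21 are conditioned on it. Over the whole list of 23, 5 were higher and 15 lower at 6 h, and 6 higher and 4 lower at 24 h. Among all tested genes the shares at 24 h were 32.2% higher and 18.1% lower.

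Further members with a large 6 h difference act in other pathways. CCNG2, an unconventional cyclin linked to cell cycle arrest, had a mean of 6.22 ± 0.397 TPM (SD, n = 3) in 6 h controls and 30.0 ± 2.53 TPM (SD, n = 3) in 6 h treated cells, then 12 ± 1.60 and 14.8 ± 1.35 TPM (SD, n = 3 each) at 24 h. GBE1, the glycogen branching enzyme, had 13.4 ± 0.439 and 59.9 ± 0.890 TPM (SD, n = 3 each) at 6 h and 17.9 ± 2.19 and 21.7 ± 2.42 TPM (SD, n = 3 each) at 24 h. EPB41, a membrane skeleton protein, had 43.4 ± 1.84 and 167 ± 2.68 TPM (SD, n = 3 each) at 6 h and 42.5 ± 3.66 and 43.5 ± 3.67 TPM (SD, n = 3 each) at 24 h. EPB41 was thus level in 3 groups and high in 6 h treated cells alone. Single members stood on 3 more lists. MTF1, the metal-responsive transcription factor, was 1 of 4 tested genes, and TP53I3, a p53 target, was 1 of 17. GPX2, a glutathione peroxidase, was 1 of 30 on the NRF2 list. Their group means at 6 h were 5.95 and 13.3 TPM for MTF1, 3.66 and 9.47 TPM for TP53I3 and 0.5 and 2.86 TPM for GPX2 in control and treated cells.

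Members outside the lists were also looked through for known roles, and those named in this paragraph were chosen after their values were seen. In the ubiquitin system, the ligases UBR4 and UBR1 were 2.27 and 2.13 times the control mean at 6 h, and the proteasome subunit PSMD6 was 2.18 times. NBR1, a receptor of selective autophagy, had means of 24.4 and 63.1 TPM at 6 h and 35.0 and 43.1 TPM at 24 h in control and treated cells. ATG14, a subunit of the autophagy lipid kinase, was 2.45 times the control mean at 6 h. Among the most abundant members were SAT1, which acetylates polyamines, with 902 and 2256 TPM at 6 h and 1298 and 1472 TPM at 24 h, and the receptor GPRC5A, with 667 and 1670 TPM at 6 h and 1172 and 1147 TPM at 24 h.

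The return to the control level can come from either arm, since the rule compares treated and control cells of the same hour. In 130 members the treated level at 24 h was at least 0.5 lower than at 6 h on the log2 scale while the control did not lie 0.5 higher, in 18 the control was at least 0.5 higher at 24 h while the treated level had not come down by 0.5, in 23 both held, and in 4 neither. These counts are a description, fixed in part by the rule. The control was at least 0.5 higher at 24 h in 23.4% of members and in 8.63% of Ensembl genes with a mean of at least 1 TPM. The rule favours such a rise, so nothing is drawn from it. The share of all genes whose treated level came down by 0.5 was not taken. Of the 18, 4 were listed at 0 in at least 1 library, and some carry the same values as another member. The 18 hold NFKBIZ, CLDN4 and CLDN23, and also MKNK2, a kinase that phosphorylates the cap-binding factor eIF4E, and MXD1, a partner of MAX. MKNK2 had means of 126, 305, 266 and 224 TPM in 6 h control, 6 h treated, 24 h control and 24 h treated cells. Over all members the treated time difference had a median of -0.96, against 0.16 over all tested genes.

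**Figure D4:**
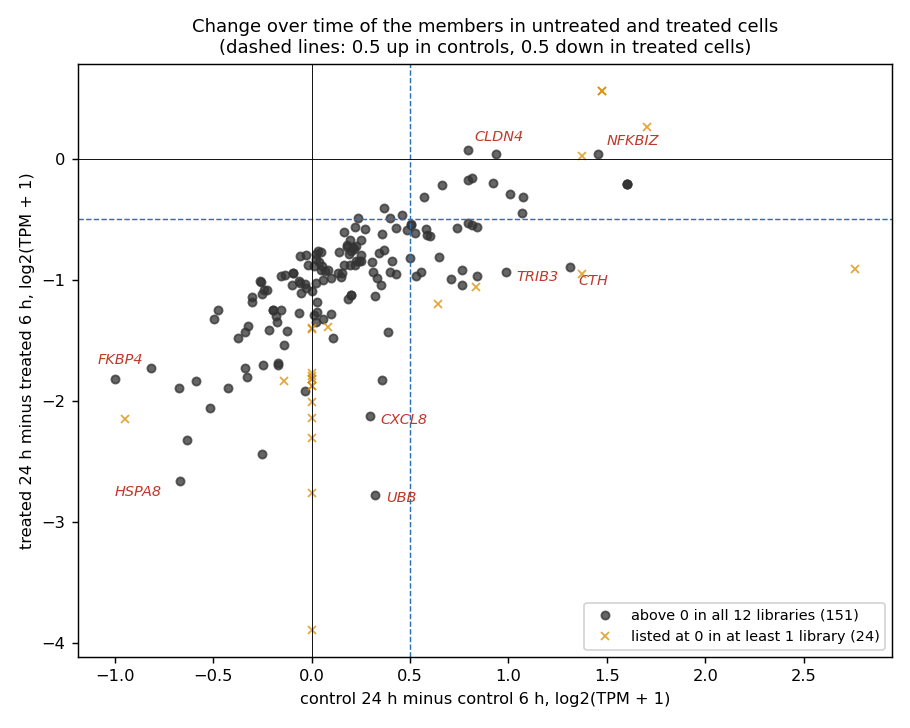
Difference between 24 h and 6 h in log2(TPM + 1) for each of the 175 members, in untreated cells (horizontal) and treated cells (vertical); dots are the 151 members above 0 in all libraries and crosses the 24 listed at 0 in at least 1. UBB and CXCL8 lie low near the centre, HSPA8 and FKBP4 low on the left, and NFKBIZ and CLDN4 on the right near a treated difference of 0.

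The change of untreated cells between 6 h and 24 h was tested, as a comparison that the rule does not name. It shares its libraries with both comparisons that do: a choice of genes with a large difference at 6 h and a small one at 24 h favours low 6 h controls and high 24 h controls, so the balance of directions, the p-values and the order of single members are all conditioned on the choice. They are given as descriptions and nothing is drawn from them. Of the 175 members, 68 were higher and 23 lower in 24 h controls, and 84 did not pass (limma, Benjamini-Hochberg adjusted p under 0.05). Among all 11897 tested genes, 22.2% were called higher and 34.2% lower, and 56.4% in either direction. The members' share called in either direction was 52.0%. After median-of-ratios rescaling the higher share of all calls moved from 39.4% to 53.7%, and that of the members' calls from 74.7% to 83.0%. As deposited, the members' median difference was 0.14, against -0.07 over all tested genes.

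Both the heat shock list and the integrated stress list held members that rose and members that fell. Of the 8 members on the heat shock list, HSPA8, DNAJA1, FKBP4, STIP1, AHSA1 and CHORDC1 fell in untreated cells, DNAJB4 rose and HSP90AB1 did not pass (0.10, SE 0.05, limma adjusted p = 0.1). FKBP4 had the largest fall among members past the threshold, by 1.00 on the log2 scale (SE 0.05, limma adjusted p = 5.55e-08), from a mean of 323 to 161 TPM. Of the 4 members on the integrated stress list, TRIB3, HERPUD1 and DNAJB9 rose and HSPA5 fell by 0.25 (SE 0.07, limma adjusted p = 0.00738), a call lost after median-of-ratios rescaling (-0.15). TRIB3 rose by 0.99 (SE 0.06, limma adjusted p = 3.27e-07). DNAJB4 rose by 0.36 (SE 0.10, limma adjusted p = 0.0119), a call lost without replicate 2 of the 24 h controls (0.28). Among genes of these lists that were not members, the counts were 3 higher and 6 lower of 15 on the heat shock list and 16 higher and 1 lower of 20 on the integrated stress list. Whether the lists differ from each other in this respect was not tested.

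Among members past the threshold, the next largest falls in untreated cells were those of NUP153, a nuclear pore protein, at -0.82 (SE 0.07, limma adjusted p = 3.21e-06), and CEP83, a protein of the ciliary base, at -0.67 (SE 0.08, limma adjusted p = 3.55e-05). NUP153 had 25.5, 26.4 and 24.4 TPM in 6 h controls and 14.5, 14.6 and 13.0 TPM in 24 h controls, and 59.2, 61.7 and 58.7 TPM in 6 h treated libraries. SGIP1, a protein of endocytosis, was listed at 0 in all 6 h controls, which favours both its choice and its call as a rise, so no test is given for it. It had 5.84, 3.50 and 9.18 TPM in 24 h controls. In treated cells SGIP1 had 6.57, 6.91 and 24.4 TPM at 6 h and 7, 6.16 and 3 TPM at 24 h. Besides SGIP1, the largest rise past the threshold, 1.60 (SE 0.48, limma adjusted p = 0.0145), was that of identifiers ENSSSCG00000037563, ENSSSCG00000038753 and ENSSSCG00000036779, which carry the same value in every library. Their 24 h controls had 292, 283 and 844 TPM. The call was lost without replicate 3 of the 24 h controls (1.09) and without replicate 2 of the 6 h controls.

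Not all members rest on equally firm values. In total 24 members were listed at 0 in at least 1 library, and 13 of them were at 0 in all 9 libraries outside the 6 h treated group. Of these 13, 11 were above 0 in 1 of the 3 treated libraries and 2 in 2 of them, so their 6 h difference comes from 1 or 2 libraries. In 21 members, GPX2 and CSF3 among them, the mean outside the 6 h treated group was under 1 TPM. Such members passed the 1 TPM limit only through the 6 h treated group, where they are high. SCARNA18, a small RNA of Cajal bodies, has the largest 6 h difference of all members, and had 82.1, 0 and 38.1 TPM in the 6 h treated libraries and 0 in the others. SNORD94, SNORA46 and SNORA48, small nucleolar RNAs picked after their values were seen, were each above 0 in 1 library. In 3 groups, 7 members share all 12 values with another member, and the 175 identifiers hold 171 distinct profiles. At 6 h the treated libraries lay above the controls without overlap for 156 members, which the rule all but fixes, and for 28.6% of all tested genes, with 50.6% the reverse; 75.4% of all tested genes passed limma's test at 6 h in either direction. At 24 h 66 members had all treated libraries above all controls and 5 the reverse, against 35.4% and 20.7% of all tested genes, and 50.3% of all tested genes passed limma's test there in either direction.

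To see the difference in libraries that took no part in the choice, members were chosen again without the 4 libraries of 1 replicate number. The left-out libraries were then read. No label says that they came from separate cultures, so they need not be independent of the libraries that chose the genes. Without replicate 1, 132 genes met the limits, and in the left-out pair at 6 h their median difference was 1.16, with 97 at 1 or more and 124 above 0. Without replicate 2, 176 genes were chosen, with a left-out median of 1.23, 134 at 1 or more and 158 above 0. Without replicate 3, 229 genes were chosen, with a left-out median of 1.2, 182 at 1 or more and 217 above 0. The medians over all genes in these pairs were -0.19, -0.24 and -0.16. The left-out 24 h difference was within 0.3 for 83.3%, 74.4% and 41.9% of the chosen genes. For all genes, the shares within 0.3 at 24 h or at 1 or more at 6 h were not taken in these pairs. With all libraries, 689 of 11366 Ensembl genes reached 1 at 6 h. The 24 h differences of all tested genes then had quartiles of -0.13 and 0.28, so the 24 h shares are not read as a trait of the chosen genes. The chosen genes form 3 different sets, of which 107, 140 and 154 genes are among the 175 members. In the last pair the median 24 h difference of the 229 genes was 0.35 and that of all genes 0.14.

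The limits of the rule cut a continuous range. With 6 h differences of 1.0003 and 1.0008, DCP1A and SEC24A lay just inside, and CEP97, at 0.99997, and LRRC59, at 0.998, just outside. At 24 h CCDC9 and NAALAD2 lay just inside, at 0.2997 and 0.2996, and EPG5, at 0.301, and PI4K2A, at 0.303, just outside. At the lower edge CTH, at -0.26, was inside and BACH1, at -0.34, was outside. Most members had a modest 6 h difference: 128 lay between 1 and 1.5, 33 between 1.5 and 2 and 14 at 2 or more. The 24 h difference was above 0 for 130 members, below 0 for 32 and exactly 0 for 13, with a median of 0.17 against 0.09 over all tested genes.

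Among genes that are not members, those whose log2(TPM + 1) followed the members' mean most closely over the 12 libraries included CRISPLD2 (Pearson's r = 0.994) and ENSSSCG00000037465 (r = 0.990). The points are the same libraries that chose the members, so r is a description. CRISPLD2, a secreted protein, had 0.32, 0.18 and 0.27 TPM in 6 h controls, 8.68, 8.49 and 7.95 TPM in 6 h treated libraries and 0.44 to 1.07 TPM in the 24 h libraries.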

How the data were processed

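The authors deposited 1 table of TPM per gene and library. It holds 31908 Ensembl identifiers and 610 assembled loci, and each column sums to 1000000 within rounding. Per the submitters' processing notes fastp, HISAT and RSEM were used; versions, genome build and annotation are not given in the sources used here, so no coordinates or sequences are given. Replicates were not pooled, and depth is unknown. Because TPM is relative, a rise in some genes lowers the others. A supplied name table gave symbols for 15029 identifiers.

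The 11897 genes with a mean of at least 1 TPM were tested as log2(TPM + 1), which understates changes of low genes, with limma 3.58.1 in R 4.3.3 (trended prior, all 4 groups in 1 fit, 8 residual degrees of freedom, Benjamini-Hochberg adjustment over all tested genes, threshold 0.05). The procedure was tested on simulated data. Members and lists were chosen with earlier results of these data known.

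Named genes are the 12 members with the largest 6 h difference (mean TPM at least 5, no overlap at 6 h), the 4 most abundant, the 3 largest rises and falls past the threshold in untreated cells, up to 4 per list, those nearest the limits, and the 3 non-members most like the members' mean, 1 of which is not reported here. Alternatives were pseudocount, filter, scaling, 24 h band, replicate block, groups fitted, prior, minimum change and each library left out.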

Additional observations from a re-analysis of the deposited data

Results flagged for a closer look

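The same limits were also met by some entries outside the members. Of 531 assembled loci with a mean of at least 1 TPM, which carry no Ensembl identifier, 7 met these limits. That is near the 1.54% of Ensembl genes over the same mean, so the count is not read as a result. The summed level of the 7 was 60.5 to 92.6 TPM in 6 h controls and 170 to 189 TPM in 6 h treated libraries. At 24 h it was 102 to 145 TPM in controls and 119 to 163 TPM in treated libraries. MSTRG.9946 alone had 6 h means of 29.5 and 82.1 TPM in control and treated cells. MSTRG.15794 and MSTRG.5493 were listed at 0 in some libraries and overlapped at 6 h. Of 20542 Ensembl identifiers under a mean of 1 TPM, 11 met the difference limits, a far smaller share. The summed level of the 11 was 0.9 to 1.62 TPM in 6 h controls and 14.3 to 24.2 TPM in 6 h treated libraries. In the 24 h libraries it was 2.00 to 5.23 TPM.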

How the results depend on the processing

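The number of members depended on the scaling and on the 24 h band. It was 364 after median-of-ratios rescaling, 375 after quantile normalization (168 of the 175 among them), 102 with a band of 0.2 and 352 with a band of 0.5, in place of 175. Leaving out each library in turn gave 135 to 206. A pseudocount of 0.1 gave 192, of which 151 were members. Without genes listed at 0 in any library (added once the data had been seen) it was 151. For the change of untreated cells, a minimum absolute change of 1 left 450 of 6709 genes and 10 of 91 members; the criterion is stricter by construction. The other alternatives kept both counts within 1.5 times, with 5876 to 6852 genes and 77 to 93 members when a library was left out. The share of calls that were higher moved with the scaling over all genes, from 39.4% to 53.7% after median-of-ratios rescaling, and among members from 74.7% to 83.0%. Members whose treated level came down by at least 0.5 numbered 143 to 155 with a library left out, in place of 153. Replicate numbers are shared by all groups, and for same-numbered untreated libraries the deviations from the 2 group means had correlations of 0.00352, -0.115 and -0.0461. Treated against untreated libraries gave 0.0602, 0.0383 and 0.0543 at 6 h and 0.068, -0.00044 and 0.109 at 24 h. Not every correlation was over 0.1, so the libraries were taken as sharing only a number; with the replicate block 6572 genes and 92 members passed, 88 of them among the 91. Of 523 refitted values for the 25 named genes called in untreated cells, 498 kept the call, 25 lost it and none reversed. Depth is unknown, so no detection limit can be given for members near 0 TPM.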

Other observations

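Of 30 tested genes of the NRF2 antioxidant list 1, GPX2, was a member, against 1.54% of all Ensembl genes with a mean of at least 1 TPM. GPX2 passed the 1 TPM limit only through the 6 h treated libraries. Of the other 29, 23 were higher and 4 lower at 6 h, and 23 were higher and 5 lower at 24 h (limma, adjusted p under 0.05). The rule took GPX2 out, so the counts of the 29 are conditioned on it. Over the whole list of 30, 24 were higher and 4 lower at 6 h, and 23 higher and 5 lower at 24 h. Over all tested genes 26.6% were called higher and 48.7% lower at 6 h, and 32.2% and 18.1% at 24 h. HMOX1, heme oxygenase 1, had a mean of 16.2 TPM in 6 h controls and 2024 TPM in 6 h treated cells, and 14.2 and 91.9 TPM at 24 h. NQO1, a quinone reductase, had 9.27 and 253 TPM at 6 h and 5.72 and 42.0 TPM at 24 h. Both left the 24 h band, with differences of 2.61 and 2.67. SLC7A11, the cystine transporter, left it on the other side, with 9.73 and 181 TPM at 6 h and 20.4 and 13.2 TPM at 24 h, a 24 h difference of -0.61 (limma adjusted p = 0.0029).

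No tested gene of the immediate early (25 genes), MAPK feedback (17 genes) or hypoxia (22 genes) list was a member, which at the same 1.54% is near the share over all genes. Of these, 6, 3 and 2 genes had a 6 h difference of at least 1. ATF3, a stress-induced transcription factor, had 31.2 and 151 TPM at 6 h and 66.8 and 103 TPM at 24 h, and IER3 had 27.5 and 86.5 TPM at 6 h and 22.4 and 77.0 TPM at 24 h. Both remained higher in treated cells at 24 h, by 0.62 and 1.74 (limma adjusted p = 5.07e-05 and 3.08e-08).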
